A study of Mus musculus with 12 samples.

Results

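The 9 genes described here encode the mouse enzymes that write and erase DNA methylation and 3 proteins that direct or keep it. They were taken by name from the 24527 gene symbols of a liver RNA-seq count table, with earlier results of these data known. They are the methyltransferases Dnmt1, Dnmt3a and Dnmt3b, the oxidases Tet1, Tet2 and Tet3, and the chromatin proteins Uhrf1, Trim28 and Zfp57. The livers came from 12 mice aged 39 weeks, offspring of CF1 mothers and B6SJL fathers, a cross of outbred with hybrid stock, so that littermates are not genetically identical. The 4 groups were naturally conceived females, naturally conceived males, females conceived by in vitro fertilization (IVF) and males conceived by IVF, with n = 3 libraries each, and no group carried an engineered allele or received a drug. In IVF, eggs are fertilized outside the body and the embryos are transferred to a recipient female. The study asked how IVF alters the adult liver and whether its effects depend on sex. Each library was made from polyadenylated RNA of a piece of 1 liver, so the values are averages over all cells in the tissue.

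DNA methylation in mammals is placed mainly on cytosines that precede a guanine (CpG). DNMT3A and DNMT3B set new marks, while DNMT1, brought to freshly copied DNA by UHRF1, restores the marks after replication. The TET enzymes oxidise methylated cytosine with the help of oxygen and 2-oxoglutarate, and the oxidised base is lost at replication or removed by base excision repair. ZFP57 is a zinc finger protein that binds methylated imprinting control regions and recruits TRIM28, a scaffold for histone and DNA methyltransferases. These processes reset the genome around fertilization and in the early embryo, the time at which IVF embryos are in culture. In the adult liver most hepatocytes rest outside the cell cycle.

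The promoters of 5 of these genes are printed because they show the range of CpG density within the family: Tet2 and Dnmt3b carried the sex differences described further on, Dnmt1 and Uhrf1 belong to the replication-coupled pair, and Zfp57 is the CpG-poor member. Each sequence is a RefSeq window of the GRCm38.p6 assembly, 250 bases before to 50 bases after an annotated start, 5′ to 3′ on the gene's strand, with CpG in capitals. Where a gene had several windows, the one with the most CpG is given. All 9 genes matched the RefSeq table. The windows lie at chr3:133544341-133544640 (minus strand), chr2:153649199-153649498 (plus strand), chr9:20952574-20952873 (minus strand), chr17:56304063-56304362 (plus strand) and chr17:37002275-37002574 (plus strand).
Tet2: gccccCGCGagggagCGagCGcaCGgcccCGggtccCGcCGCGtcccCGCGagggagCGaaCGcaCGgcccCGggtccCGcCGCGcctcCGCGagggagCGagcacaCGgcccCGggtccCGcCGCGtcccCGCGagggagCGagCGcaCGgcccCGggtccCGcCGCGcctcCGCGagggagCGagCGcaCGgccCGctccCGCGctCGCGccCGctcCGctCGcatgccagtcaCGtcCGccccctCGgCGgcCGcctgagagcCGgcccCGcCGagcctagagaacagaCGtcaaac
Dnmt3b: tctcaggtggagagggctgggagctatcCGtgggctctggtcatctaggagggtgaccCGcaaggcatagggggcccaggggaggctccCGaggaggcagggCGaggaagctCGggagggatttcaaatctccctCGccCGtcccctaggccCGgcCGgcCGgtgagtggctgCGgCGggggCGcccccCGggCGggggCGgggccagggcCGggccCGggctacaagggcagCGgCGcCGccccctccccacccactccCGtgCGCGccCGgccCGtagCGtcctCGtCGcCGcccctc
Dnmt1: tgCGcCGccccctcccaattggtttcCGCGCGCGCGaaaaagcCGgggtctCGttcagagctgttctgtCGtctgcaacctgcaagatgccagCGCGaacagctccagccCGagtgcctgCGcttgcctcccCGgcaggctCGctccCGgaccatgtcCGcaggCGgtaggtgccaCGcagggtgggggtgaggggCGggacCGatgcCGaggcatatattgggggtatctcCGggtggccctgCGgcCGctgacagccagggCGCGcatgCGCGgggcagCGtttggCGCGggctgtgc
Uhrf1: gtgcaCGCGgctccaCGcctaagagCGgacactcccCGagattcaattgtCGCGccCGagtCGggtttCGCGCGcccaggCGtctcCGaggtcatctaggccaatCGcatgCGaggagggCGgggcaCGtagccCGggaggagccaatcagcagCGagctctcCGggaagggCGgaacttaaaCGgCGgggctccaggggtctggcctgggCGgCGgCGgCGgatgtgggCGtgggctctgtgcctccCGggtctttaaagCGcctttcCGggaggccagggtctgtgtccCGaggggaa
Zfp57: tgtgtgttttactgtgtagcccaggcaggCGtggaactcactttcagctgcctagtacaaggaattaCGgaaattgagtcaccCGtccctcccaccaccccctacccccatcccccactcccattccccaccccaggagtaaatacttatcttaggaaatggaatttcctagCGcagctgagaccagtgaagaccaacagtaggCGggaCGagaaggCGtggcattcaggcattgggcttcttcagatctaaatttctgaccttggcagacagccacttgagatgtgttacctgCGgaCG

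The Tet2 window held 57 CpG, an observed-to-expected ratio of 1.17. Over the 32851 windows of the table the medians were 7 CpG and a ratio of 0.38. The Dnmt1 and Uhrf1 windows held 33 CpG each, the Dnmt3b window 30 and the Zfp57 window 9. The windows of the other 4 genes with the most CpG held 47 in Dnmt3a, 23 in Trim28, 22 in Tet3 and 17 in Tet1. Letters that E2F factors, regulators of replication genes, are known to bind were searched as TTTCCCGC, TTTGGCGC, TTTGCCGC and TTTCGCGC on both strands, and 2.3% of all windows held at least 1 of them. The printed Dnmt1 window held TTTGGCGC on the sense strand at bases 284 to 291 and TTTCGCGC on the opposite strand at bases 32 to 39. The Uhrf1 window held TTTCGCGC on the sense strand at bases 66 to 73. None of these matches overlapped another, and the windows of the other 7 genes had no match. A match describes letters only and is not evidence of binding.

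The libraries held 6826534 to 27832271 counts, and 13204 genes passed the filter on low counts. Sex-linked transcripts matched the labelled sex in 12 of 12 libraries, and hepatocyte markers summed to 89000 to 124000 CPM (counts scaled to library size with TMM) over the 4 groups. Replicates within a group differed beyond counting error in 12 of 12 pairs. The titles give each library a number of its own, and IVF female replicate 1 and IVF male replicate 2 share its first part. The labels do not say whether that part marks a litter or another shared source, so relatedness was not modelled and p-values measure the spread between these libraries. The 2 libraries of smallest total, IVF female replicate 1 and natural female replicate 2, stood apart from the other 4 female libraries. All tested genes were ordered by the GC content of their transcripts and cut into 5 equal bins. In the bin of lowest GC content, the median of the 2 shallow libraries was 0.36 (log2) above that of the other females, and in the bin of highest GC content the median difference was -0.54. How far the shallow libraries stood from the other females is given with the values of Tet2, Tet3, Trim28 and Uhrf1, and the part of GC content in it was not tested. For Dnmt1, Dnmt3a and Dnmt3b the log2 difference was -0.03, -0.15 and -0.17.

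**Figure D1:**
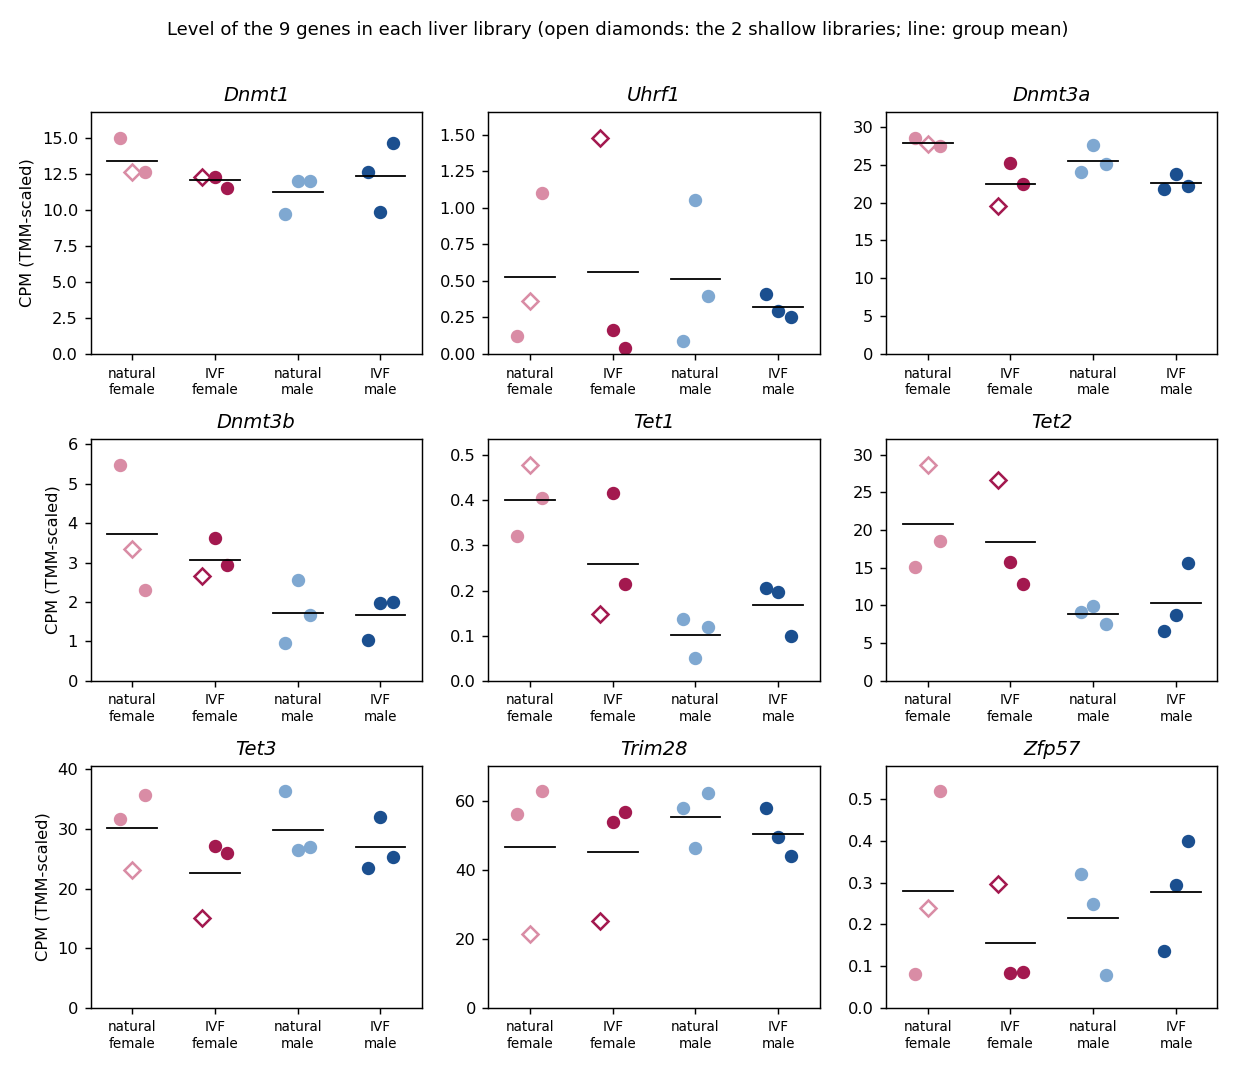
Level of each gene (vertical axes, TMM-scaled CPM from 0) in the 12 liver libraries by group (horizontal axes), with a line at each group's mean of 3 libraries and open diamonds for the 2 shallow libraries. Tet2 lies between 12.9 and 28.7 CPM in females and between 6.59 and 15.7 CPM in males, and Trim28 is lowest in the 2 shallow libraries, at 25.1 and 21.4 CPM.

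All 9 genes had counts in the liver, over a wide range of levels. Levels between genes were compared per kilobase of merged exon. Trim28 was the highest at 11.9 ± 3.27 CPM per kb (SD, n = 12 libraries). Dnmt1 at 1.66 ± 0.211, Tet3 at 1.64 ± 0.353 and Dnmt3a at 1.48 ± 0.17 CPM per kb followed, and neighbours in this order did not differ beyond their spread. Tet2 came next at 0.866 ± 0.426 CPM per kb, ahead of Dnmt3b at 0.499 ± 0.243 CPM per kb, and their ranges overlapped. Uhrf1 at 0.113 ± 0.11, Zfp57 at 0.0613 ± 0.0379 and Tet1 at 0.015 ± 0.00902 CPM per kb closed the order, with 90, 49 and 51 reads over all 12 libraries. Tet1 and Zfp57 did not pass the filter, which leaves 7 tested genes, and Uhrf1 passed at percentile 3.5 of the tested genes by mean CPM. Counts were assigned to genes and not to isoforms, and the merged exons of Tet2, Tet3 and Dnmt3a are long, so their values per kilobase depend on the annotation.

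**Figure D2:**
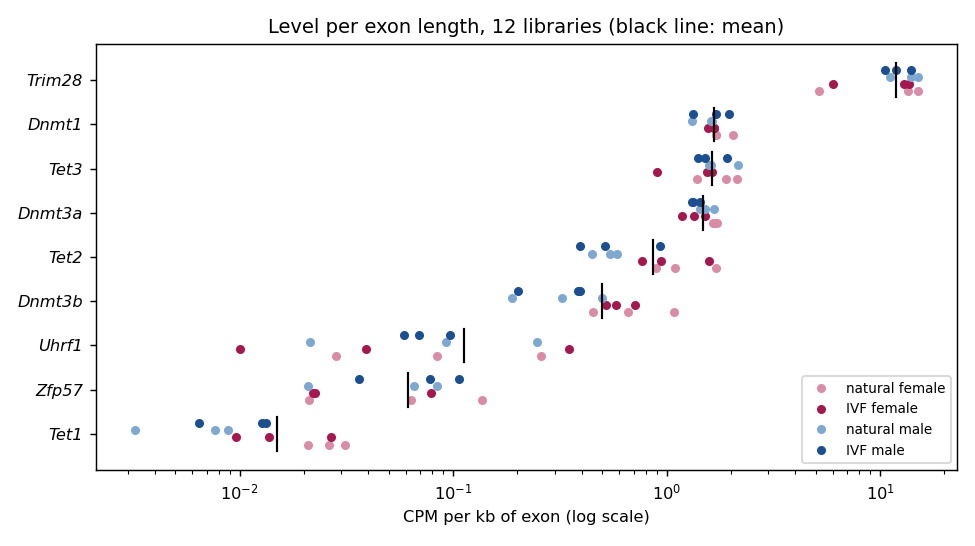
Level of each gene per kilobase of merged exon (horizontal axis, log scale) in every library, coloured by group, with a black line at the mean of the 12 libraries. Trim28 stands highest at a mean of 11.9 CPM per kb, and Tet1 lowest at 0.015 CPM per kb.

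Dnmt1, the maintenance methyltransferase (chromosome 9:20907209-20959888, minus strand, GRCm38), was among the steadiest of the 9. Its levels were 12.3, 12.3 and 11.5 CPM in IVF females, 15, 12.6 and 12.6 CPM in natural females, 12.6, 9.83 and 14.6 CPM in IVF males and 9.68, 12 and 12 CPM in natural males. All 3 IVF females lay just below all 3 natural females, while the male groups overlapped. The fitted log2 differences of IVF minus natural were -0.16 ± 0.188 (SE) in females and 0.13 ± 0.186 in males, with 95% intervals of -0.57 to 0.25 and -0.27 to 0.54. Neither differed beyond the spread between animals (adjusted p = 1 for each with edgeR).

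Uhrf1, the reader of newly copied DNA that guides DNMT1 (17:56303321-56323486, plus strand), was counted with 1 to 21 reads per library. The IVF females had 10, 4 and 1 reads, the natural females 3, 3 and 19, the IVF males 6, 6 and 5, and the natural males 2, 21 and 10. High and low libraries occurred within single groups, and the reads do not follow sex or mode of conception. The shallow libraries stood 1.95 above the other females (log2), on 10 and 3 reads. The 95% interval of its log2 difference of IVF minus natural ran from -2.98 to 2.11 in females and from -3.06 to 1.72 in males, so changes of several fold were not detectable at this depth.

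Since both proteins act when DNA is copied, their log2 CPM were set against a score of the other cell cycle genes, the mean deviation of 23 tested genes, over the 12 libraries. For Uhrf1, Pearson's r was 0.63 (permutation p = 0.03, adjusted over 18 relations 0.11) and Spearman's rho 0.61 (permutation p = 0.04, adjusted 0.24), and r was 0.61 without the 2 libraries farthest from the median of the score. For Dnmt1, r was 0.22 (permutation p = 0.49, adjusted 0.74) and rho 0.36 (permutation p = 0.25, adjusted 0.41), with r at -0.05 without the same 2 libraries. Zfp57, with 2 to 9 reads a library, gave r = 0.75 (permutation p = 0.0059, adjusted 0.082), rho = 0.72 (permutation p = 0.01, adjusted 0.19) and r = 0.92 without those 2 libraries. None of the 18 relations passed an adjusted p of 0.05.

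Dnmt3a, a de novo methyltransferase (12:3806007-3914443, plus strand), did not pass the test between IVF and natural animals. On the TMM scale it was lower in the IVF libraries of both sexes without overlap. It stood at 19.6, 25.2 and 22.5 CPM in IVF females against 28.6, 27.7 and 27.5 CPM in natural females. In males it stood at 21.8, 23.8 and 22.2 CPM after IVF and at 24, 27.6 and 25.1 CPM after natural conception. On this scale every IVF library lay below every natural library of the same sex, although the lowest natural male overlapped the IVF females. Scaled by library total alone, the males overlapped, with 484 of 21046484 counts in IVF male replicate 2 and 526 of 24235375 in natural male replicate 1. The log2 difference was -0.315 ± 0.15 in females (95% interval -0.64 to 0.01, unadjusted p = 0.0586, adjusted p = 1 with edgeR) and -0.18 ± 0.149 in males (-0.50 to 0.15, adjusted p = 1). Averaged over the sexes it was -0.245 ± 0.106 (95% interval -0.48 to -0.01, unadjusted p = 0.0394, adjusted p = 1). Over the 9 alternative settings other than leaving out 1 library, the difference in males ran from -0.188 to -0.042. Dnmt3a was among 17 of the 13204 tested genes, 0.129%, that lay lower after IVF without overlap in both sexes. Whether that share exceeds chance was not tested, and Dnmt3a was singled out from the 9 after its values were seen. Dnmt3aos, an antisense RNA that shares 133 exonic bases with Dnmt3a, had 7 reads in all against 5647 for Dnmt3a.

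Dnmt3b, the second de novo methyltransferase (2:153649450-153687730, plus strand), had a mean about 2 times as high in females as in males. Its levels were 2.67, 3.62 and 2.95 CPM in IVF females and 5.49, 3.35 and 2.31 CPM in natural females, against 1.03, 1.97 and 2 CPM in IVF males and 0.959, 2.55 and 1.66 CPM in natural males. The IVF females all lay above the IVF males, while 1 natural male lay above 1 natural female. Over both modes of conception the mean was 3.4 ± 1.13 CPM (SD, n = 6) in females and 1.69 ± 0.613 CPM in males. These values rest on 15 to 137 reads a library. The sex difference did not pass in natural animals, in IVF animals or on the average of both (adjusted p = 0.225, 0.359 and 0.0632 with edgeR).

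Tet2 (3:133463679-133545139, minus strand) had a larger sex difference than Tet3, the only other oxidase gene that was tested. Its levels were 26.7, 15.8 and 12.9 CPM in IVF females, 15.1, 28.7 and 18.5 CPM in natural females, 6.59, 8.7 and 15.7 CPM in IVF males and 9.13, 9.88 and 7.51 CPM in natural males. Natural females all lay above natural males, and in the IVF groups 1 male exceeded 1 female. The mean was 19.6 ± 6.55 CPM (SD, n = 6) in females and 9.59 ± 3.22 CPM in males. The 2 highest values were those of the shallow libraries, which exceeded the other 4 females by 0.84 (log2).

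Tet3 (6:83362373-83459084, minus strand), the oxidase best known from the zygote, was the most highly counted of the 3 in the liver. It stood at 15, 27.1 and 25.9 CPM in IVF females, 31.6, 23.2 and 35.7 CPM in natural females, 23.4, 32 and 25.3 CPM in IVF males and 36.3, 26.4 and 26.9 CPM in natural males. The groups overlapped in both sexes, and the lowest IVF female and the lowest natural female were the shallow libraries, at 0.67 below the other females (log2 difference -0.67). Tet1 (10:62804570-62908996, minus strand), the oxidase of pluripotent and germ cells, had 1, 10 and 5 reads in IVF females, 8, 4 and 7 in natural females, 3, 4 and 2 in IVF males and 3, 1 and 3 in natural males. Scaled to CPM, Tet1 was 0.148 to 0.479 in females (mean 0.33) and 0.0499 to 0.206 in males (mean 0.135). This lower level in males, the same direction as that of Tet2, was not tested. The limit that a count of 0 allows is 3 reads, worth 0.445 CPM in IVF female replicate 1 and 0.119 CPM in natural male replicate 3. Most of the Tet1 values lie near that limit.

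Trim28 (7:12999114-13031035, plus strand), the scaffold that zinc finger proteins recruit, was the highest in absolute terms. It stood at 25.1, 54 and 56.9 CPM in IVF females, 56.2, 21.4 and 62.8 CPM in natural females, 58.1, 49.5 and 44.1 CPM in IVF males and 58, 46.3 and 62.3 CPM in natural males. Apart from the 2 shallow libraries, all values lay between 44.1 and 62.8 CPM in groups that overlapped. The shallow libraries stood 1.3 below the other females (log2 difference -1.30). The Trim28 transcript has the highest GC content of the 9, 59.6%, and the part of GC content in this difference was not tested. Zfp57 (17:37001163-37010635, plus strand), which guides TRIM28 to imprinted regions, had 2, 2 and 2 reads in IVF females, 2, 2 and 9 in natural females, 2, 6 and 8 in IVF males and 7, 5 and 2 in natural males, which shows no order by group.

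**Figure D3:**
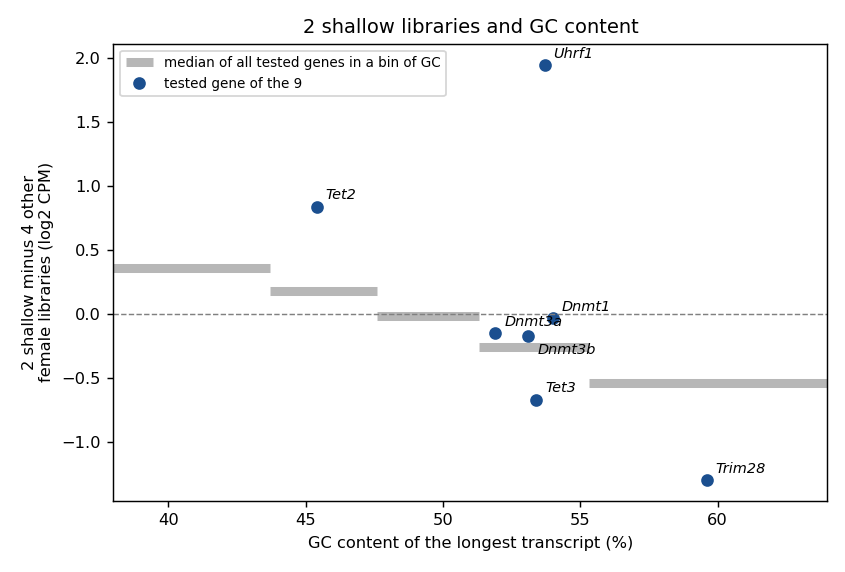
Difference in mean log2 CPM between the 2 shallow female libraries and the other 4 female libraries (vertical axis) against the GC content of the longest transcript (horizontal axis) for the 7 tested genes, with grey bars at the median of all tested genes in each of 5 equal bins of GC content. The bars step from 0.36 down to -0.54, with Tet2 at 0.84 and Trim28 at -1.3.

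The levels of Trim28, Tet2 and Tet3 were also set against the total count, and no relation passed after adjustment. For Trim28, r with the log10 total was 0.81 (permutation p = 0.011, adjusted 0.082) and rho 0.41 (permutation p = 0.19, adjusted 0.36). For Tet2, r was -0.68 (permutation p = 0.014, adjusted 0.082) and rho -0.52 (permutation p = 0.089, adjusted 0.24). For Tet3, r was 0.67 (permutation p = 0.019, adjusted 0.087) and rho 0.55 (permutation p = 0.071, adjusted 0.24). Without the 2 shallow libraries r was -0.23, -0.10 and 0.01, so these relations rest on those 2 libraries. Deviations from the group means correlated at -0.8 between Tet2 and Trim28 and at 0.77 between Tet3 and Trim28, which share those libraries.

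For the comparison of IVF with natural conception, 0 of the 7 tested genes passed in females, where 0 of 13204 genes (0%) passed in all with edgeR and 488 did so before adjustment (p under 0.05). The 7 genes all had a lower fit in IVF females, with a median log2 difference of -0.273 against -0.015 over all genes tested, of which 47.8% had a higher fit. Leaving out 1 library turned the fits of 4 of the 7, to at most 0.15 for Dnmt3b, 0.12 for Tet2, 0.965 for Uhrf1 and 0.25 for Trim28, and voom and a GC offset also turned Trim28. The fits ran from -0.048 for Trim28 to -0.435 for Uhrf1, and the interval of each of the 7 spanned 0. Tet3 had a log2 difference of -0.407 (95% interval -0.97 to 0.15) and Tet2 one of -0.175 (-0.97 to 0.62). The libraries of 2 genes, Dnmt1 and Dnmt3a, did not overlap, against 7.41% of all genes. In males 0 of the 7 passed and 1 of 13204 genes (0.00757%) did, with 355 at an unadjusted p under 0.05. There, 2 genes had a higher and 5 a lower fit, with a median of -0.136 against 0.01 over all genes. On the TMM scale the libraries of 1 gene, Dnmt3a, did not overlap, against 8.92% of all genes.

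The test of the difference between the IVF effects in males and females passed for 0 of the 7 genes and 0 of 13204 genes (0%) with edgeR, with 511 genes at an unadjusted p under 0.05. For Tet2 this difference was 0.40 ± 0.513 (95% interval -0.72 to 1.53) and for Dnmt3b 0.24 ± 0.59 (-1.05 to 1.53). The average IVF effect passed for 0 of the 7 genes and for 1 gene in all (0.00757%). These tests do not show that the groups were alike: an interval such as that of Tet2 in females leaves room for a log2 difference of -0.97.

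The largest sex differences among the 7 tested genes were those of Tet2 and Dnmt3b. Among natural animals the log2 difference of male minus female was -1.23 ± 0.367 for Tet2 (95% interval -2.03 to -0.42, unadjusted p = 0.00605, adjusted p = 0.138 with edgeR) and -1.13 ± 0.416 for Dnmt3b (-2.04 to -0.22, unadjusted p = 0.0194, adjusted p = 0.225). None of the 7 passed there, where 234 genes (1.77%) did, and the libraries of 2 of the 7, Tet2 and Dnmt1, did not overlap, against 19.9% of all genes. Among IVF animals the difference was -0.82 ± 0.365 for Tet2 (95% interval -1.62 to -0.02, unadjusted p = 0.0447, adjusted p = 0.32) and -0.88 ± 0.422 for Dnmt3b (-1.81 to 0.04, unadjusted p = 0.0585, adjusted p = 0.359). None passed, where 289 genes (2.19%) did, and the libraries of 1 of the 7, Dnmt3b, did not overlap, against 21.8% of all genes.

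The average of both sex differences, a comparison added after the values had been seen, gave Tet2 2.03-fold lower in males, with a log2 difference of -1.02 ± 0.259 (95% interval -1.59 to -0.46, unadjusted p = 0.002, adjusted p = 0.0364 with edgeR). It passed the test as 1 of the 7 genes, where 951 of 13204 genes (7.2%) passed, 472 higher and 479 lower in males. Dnmt3b had a difference of the same size, -1.005 ± 0.296 (95% interval -1.65 to -0.36, unadjusted p = 0.00551), that missed the threshold at an adjusted p of 0.0632. The other 5 had log2 differences between -0.175 for Uhrf1 and 0.195 for Trim28, with adjusted p of at least 0.634; scaled by library size alone or without the 2 shallow libraries, Trim28 and Tet3 turned to the other side of 0, as did Uhrf1 without those libraries. Without the 2 shallow libraries, the Tet2 difference was -0.725 and no longer passed (adjusted p = 0.0764). Its call was also lost in 8 of the 12 fits that each leave out 1 library, with adjusted p between 0.0173 and 0.0967, and it held without IVF female replicate 3, IVF male replicate 3, natural female replicate 1 or, at the edge of the threshold, natural female replicate 3. Dnmt3b passed without natural female replicate 3 (adjusted p = 0.0465) or natural male replicate 2 (adjusted p = 0.0477).

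**Figure D4:**
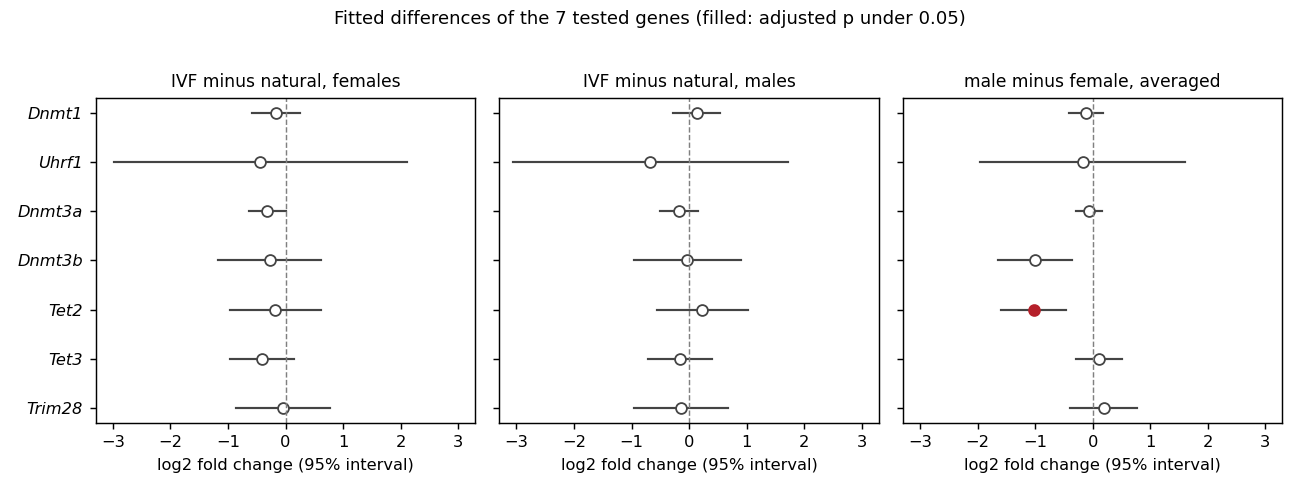
Fitted log2 fold changes (points) with 95% intervals (lines) of the 7 tested genes for IVF minus natural in females, IVF minus natural in males, and male minus female averaged over both modes of conception. All intervals of the IVF panels span 0, and in the sex panel Tet2 (-1.02, filled for an adjusted p under 0.05) and Dnmt3b (-1.005) lie below 0.

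Markers of some other liver cells differed in the same contrast, in which 7.2% of all genes passed. Those of Kupffer cells, the macrophages of the liver, summed to 387 to 570 CPM in the females and 191 to 389 CPM in the males, ranges that meet at their ends, and 10 of 10 had a lower fit in males. Within natural animals 7 had a lower and 3 a higher fit in males (median -0.215), and 0 passed, against 1.77% of all genes. Within IVF animals all 10 had a lower fit (median -1.027), and 3 passed, against 2.19% of all genes. With edgeR, 4 of the 10 fell in males on the average sex effect: Vsig4 (-1.44 ± 0.187), Timd4 (-1.49 ± 0.366), Clec4f (-0.67 ± 0.145) and C1qb (-0.625 ± 0.159). Of the 10 stellate cell markers, 7 had a lower and 3 a higher fit in males, and Dcn and Lrat fell, while Col1a1 had a log2 difference of 1.24 that did not pass. T cell markers summed to 2.83 to 8.5 CPM in females and 1.92 to 5.33 CPM in males. Of 6 tested, 5 had a lower fit in males and Cd4 a higher one (0.50). Among them 1, Cd3g, fell (-2.22, adjusted p = 0.0235 with edgeR). Markers of B and plasma cells summed to 5.03 to 26.8 CPM in females and 3.49 to 7 CPM in males, and 5 of 5 had a lower fit, of which Jchain and Cd79b fell. Fits in males were lower for 7 of 8 endothelial, 3 of 5 cholangiocyte, 3 of 3 neutrophil and 1 of 3 erythroid cell markers. None of the markers of these 4 lists passed. The IVF males had 191 to 295 CPM of Kupffer cell markers against 355 to 389 CPM in natural males, with 0 of 10 passing the test. In bulk tissue fewer cells of a type and less RNA per cell cannot be told apart, and the part of these cells in the differences of Tet2 and Dnmt3b was not tested.

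The genes that work with the 9 were described from 8 lists. In IVF against natural animals 0 genes of any list passed, in females or in males. For maintenance methylation partners, 8 of 10 were tested and 6 had a lower fit in IVF females and 2 in IVF males. The smallest unadjusted p-values in females with edgeR were 0.14 for Cdca7 (log2 difference -0.64) and 0.497 for Hells (-0.45). These genes of the chromatin remodelling pair that opens DNA for methylation averaged only 1.77 and 1.01 CPM, and neither difference exceeded the spread. Of 11 TET partners and suppliers of 2-oxoglutarate, Idh1, the cytosolic isocitrate dehydrogenase, had 427 ± 48.4 CPM in IVF females and 306 ± 14.6 CPM in natural females (log2 difference 0.48, unadjusted p = 0.0211). Cxxc5, which binds unmethylated CpG, had 44 ± 2.96 and 62.3 ± 5.79 CPM (-0.50, unadjusted p = 0.0212). Both had an adjusted p of 1 with edgeR.

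Of the 20 genes of the methyl donor cycle, which makes the S-adenosylmethionine that the methyltransferases consume, 15 had a higher fit in IVF females, with a median of 0.222 against -0.015 over all genes, and 7 in IVF males, with a median of -0.093 against 0.01. Shmt1, which charges folate with a carbon unit from serine, had 193 ± 38.2 CPM in IVF and 129 ± 29 CPM in natural females (log2 difference 0.58, unadjusted p = 0.027, adjusted p = 1 with edgeR). Nnmt, which uses up methyl groups on nicotinamide, had 5.23 ± 6.5 CPM in IVF and 32.9 ± 25 CPM in natural males (-2.64, unadjusted p = 0.0283, adjusted p = 1), with a spread close to its means. Of 23 tested cell cycle genes, 15 had a lower fit in IVF females, with a median of -0.16 against -0.015 over all genes. In IVF males 12 did, with a median of -0.001 against 0.01. In females Rrm2, a subunit of ribonucleotide reductase, had 1.97 ± 0.364 CPM in IVF and 4.48 ± 1.28 CPM in natural animals (-1.18, unadjusted p = 0.0294 with edgeR). E2f8 had 17.2 ± 3.85 and 37 ± 14.9 CPM (-1.10, unadjusted p = 0.0376), and neither passed after adjustment.

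In the average sex effect, 8 genes of these lists passed at an adjusted p under 0.05 with edgeR. They are 7.62% of the 105 tested genes of the lists, a share near the 7.2% of all genes. Idh2, the mitochondrial isocitrate dehydrogenase that makes 2-oxoglutarate, was the only called gene among the 11 TET partners. It had 120, 151 and 106 CPM in IVF females, 106, 136 and 134 CPM in natural females, 76.9, 68 and 67.3 CPM in IVF males and 74.8, 66.5 and 62.6 CPM in natural males. All 6 females lay above all 6 males, and the share of all genes separated in this way was not counted. Between the sexes, 19.9% of all genes did not overlap within natural animals and 21.8% within IVF animals. Idh2 had a log2 difference of -0.86 ± 0.128 (adjusted p = 0.00203 with edgeR). It also passed within natural animals (-0.88, adjusted p = 0.0322) and within IVF animals (-0.83, adjusted p = 0.0364), calls that were lost in 8 and 7 of the 12 fits that leave out 1 library.

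Of the 10 genes on the list of methyl-CpG readers and related proteins, 2 passed the test, both higher in males. Mbd1, a repressor that binds methylated CpG, had 16.2 to 19.7 CPM in females and 26 to 99 CPM in males (log2 difference 1.399 ± 0.279, adjusted p = 0.0123 with edgeR), and natural male replicate 1, at 99 CPM, stood far above the other males; without it the difference was 0.993 (adjusted p = 0.00142). Mbd3, a subunit of the NuRD remodelling complex, had 35 ± 3.07 CPM in females and 47.3 ± 3.45 CPM in males (0.43 ± 0.109, adjusted p = 0.0365), a call that each of the 12 fits without 1 library lost. Of the 20 genes of the TRIM28 complex and its zinc finger partners, Zfp445, which like ZFP57 acts on imprinted regions, rose in males from 95.5 ± 13.1 to 228 ± 75.2 CPM (1.26 ± 0.219, adjusted p = 0.00567). The 6 males, at 154 to 333 CPM, lay above the 6 females, at 76.1 to 114 CPM, a separation whose share over all genes was not counted.

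Of the 11 tested genes of base excision repair, which finishes what TET oxidation begins, Apex1, an endonuclease for sites that lack a base, rose in males from 18.7 ± 4.29 to 30.2 ± 2.75 CPM (log2 difference 0.71 ± 0.145, adjusted p = 0.0142 with edgeR). Its exons share 877 bases with Pip4p1 on the opposite strand, and the use of strand in counting is not given in the sources used here. In the methyl donor cycle Ahcyl2, a relative of the enzyme that clears S-adenosylhomocysteine, rose from 13.6 ± 2.53 to 24.2 ± 2.72 CPM (0.82 ± 0.148, adjusted p = 0.00664). Of the cell cycle genes Ccne1, cyclin E1, rose from 0.474 ± 0.335 to 2.94 ± 1.39 CPM (2.79 ± 0.509, adjusted p = 0.0073 with edgeR). The female libraries held only 2 to 18 Ccne1 reads each. IVF male replicate 2, at 10 reads and 0.492 CPM, lay below the highest female, at 1.04 CPM. E2f1 rose from 1.92 ± 0.375 to 3.69 ± 0.896 CPM (0.96 ± 0.208, adjusted p = 0.0186 with edgeR). The other 21 tested cell cycle genes did not pass, and the list's median was -0.074 against -0.011 over all genes. Of 20 germline genes that DNA methylation is known to silence in somatic cells, 2 had enough counts to be tested, Sycp3 and Brdt, and neither passed. Sycp3 shares 660 exonic bases with Chpt1 on the opposite strand.

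**Figure D5:**
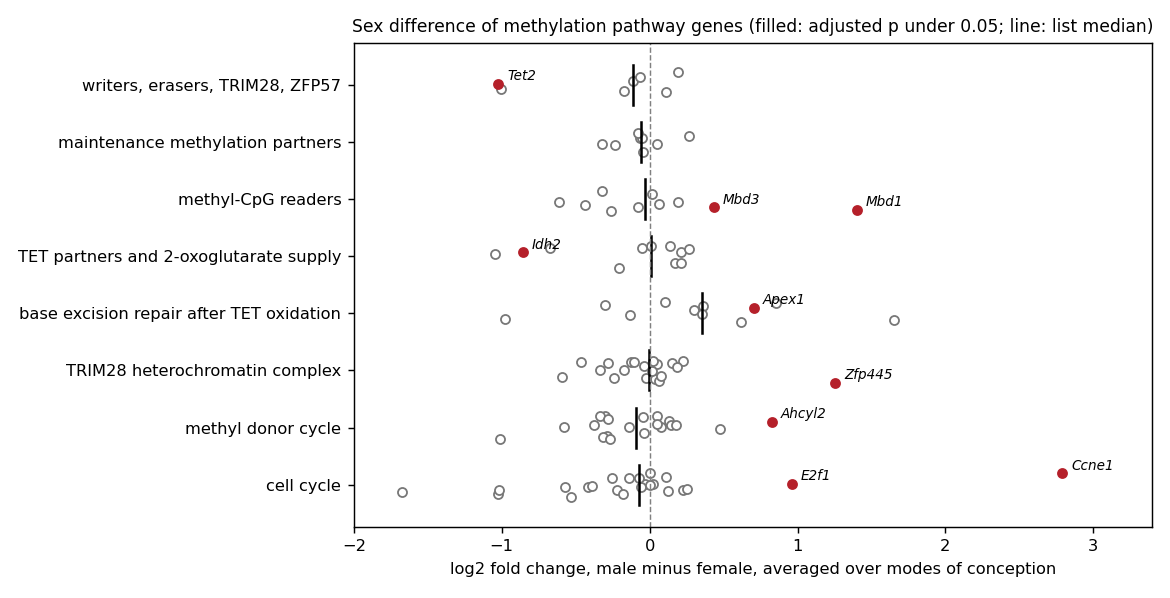
Log2 fold change of male minus female, averaged over both modes of conception (horizontal axis), for each tested gene of the 9 and of 7 pathway lists (vertical axis), filled and named where the adjusted p is under 0.05, with a black line at each list's median. The list medians lie close to 0, apart from 0.352 for base excision repair, and single genes such as Tet2 (-1.02), Idh2 (-0.86) and Zfp445 (1.26) stand away from them.

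The genes whose deviations from the group means followed each member most closely over the 12 libraries were found among 11810 genes averaging 1 CPM or more. For Tet2 they were Rpf1, Chd9 and Yae1d1, each at r = 0.98, and r was 0.98, 0.96 and 0.96 without the 2 shallow libraries. For Tet3 they were Ppp1r1b (0.99), Nr2c2 (0.98) and Adgrl1 (0.97). For Trim28 they were Slc25a39, Atg2a and Eral1, each at 0.99, which dropped to 0.93, 0.89 and 0.88 without those libraries. For Dnmt3a they were Rab11fip4 (0.98), Gm4952 (0.95) and Smarcd1 (0.93), for Dnmt3b Msrb2 (0.92), Map3k4 (0.91) and Ppip5k1 (0.9), and for Dnmt1 Alkbh2 (0.92), Nme6 (0.91) and Etv6 (0.9). The closest of the others were Zfp334 for Tet1 (0.91), Dmpk for Uhrf1 (0.96) and Prkx for Zfp57 (0.94), which rest on few reads. These are the highest of many correlations and describe these libraries only. Among the 9 themselves, Dnmt3a and Dnmt3b correlated at 0.6 and Dnmt1 and Uhrf1 at 0.14.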

How the data were processed

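Liver RNA of 12 mice, 3 per sex and mode of conception, was sequenced after poly-A selection with a KAPA mRNA-Seq kit, per the labels' protocols. The deposited table gives raw read counts for each gene symbol, with 1 column per library. Per the submitters' processing notes, Trimmomatic 0.32, STAR 2.3.0e and featureCounts 1.5.0 were used with mm10. Annotation, strand setting and handling of multimapping reads are not given in the sources used here. Every row of the table names a gene.

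The main test was edgeR 4.0.16's quasi-likelihood test in R 4.3.3, run on the deposited counts after filterByExpr and TMM, with 1 fit of group means over all 12 libraries and Benjamini-Hochberg adjustment over 13204 genes, called under 0.05. Standard errors were derived from each log2 fold change and its F statistic. Replicates were numbered in accession order and pair no samples. Libraries ranged from 6826534 to 27832271 counts, and floors of 3 counts cover counting error only. Positions, exon lengths and GC content came from GENCODE M21 (GRCm38), with GC content for 97.9% of tested genes. Correlations over libraries used two-sided permutation tests with 100000 resamples. Alternatives were library size alone, DESeq2's size factors, no filter, a minimum mean of 1 CPM, the Wald test of DESeq2 1.42.0, limma 3.58.1 voom, fits to the groups compared, leaving out the 2 smallest libraries and leaving out each library. The average sex effect and a GC offset (loess, span 0.5) were chosen after seeing the data. The members and lists were chosen with earlier results of these data known. Named genes of a list are those called, otherwise up to 2 of smallest unadjusted p; the text names some of them. In simulated counts for IVF against natural females, with 13204 genes and 200 changed, edgeR recovered 12% of 2-fold and 80% of 4-fold changes with 6 false calls.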

Additional observations from a re-analysis of the deposited data

How the results depend on the processing

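No paired analysis was possible because the groups compared share fewer than 2 numbers in the labels: only IVF female replicate 1 and IVF male replicate 2 have titles that share the first part of a number. In the IVF comparisons 0 of the genes that could be tested passed, 7 as reported and 6 to 9 under other settings, also under each of the other settings and in the 12 fits without 1 library. On the sex difference in natural animals, 1 gene of the 9 passed under library size alone and under DESeq2, against 0. On the average sex effect, 2 passed under library size alone, DESeq2 and the GC offset and 0 without the 2 smallest libraries, against 1, and 0 to 2 without 1 library. The 28 fold changes examined of the 7 tested genes kept their direction in 539 of 573 alternatives. Of the 28, 15 turned at least once, the largest in size being 0.672 (Uhrf1 in IVF males). Trim28 in IVF females was 0.013 with voom and 0.105 with the GC offset, and 0.001 in IVF males under library size alone. Dnmt3b in IVF males was 0.095 under library size alone, 0.053 with voom and 0.021 with the GC offset. In the average sex effect under library size alone Tet3 was -0.115 and Trim28 -0.031, and without the 2 smallest libraries Tet3 was -0.10, Trim28 -0.14 and Uhrf1 0.635, with Uhrf1 at 0.40 under voom. Without 1 library, IVF against natural in females gave Dnmt3b -0.505 to 0.15, Tet2 -0.50 to 0.12, Uhrf1 -2.24 to 0.965 and Trim28 -0.39 to 0.25. In males it gave Dnmt1 -0.007 to 0.27, Dnmt3b -0.32 to 0.35, Tet2 -0.21 to 0.46, Tet3 -0.30 to 0.013 and Uhrf1 -1.17 to 0.33. The average sex effect gave Tet3 -0.021 to 0.18 and Uhrf1 -0.71 to 0.71, and the difference between the IVF effects gave Dnmt3b -0.19 to 0.62 and Tet2 -0.031 to 0.72. The cause was not tested. For Dnmt1 against the cell cycle score r was -0.05, and for Trim28 against the total count -0.23, without the 2 libraries farthest from the median of each measure.

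Over all genes DESeq2 called 4 in IVF females, 5 in IVF males, 9 for the difference and 4 for the average IVF effect, voom called 0 in IVF males and 0 for the average, and the GC offset 0 for the average; leaving out 1 library gave 0 to 1 in IVF males and for the average. For sex in natural animals the count was 510 under library size alone (88 higher and 422 lower in males, against 118 and 116), 678 with DESeq2, 139 with only those groups and 111 to 263 without 1 library. For sex in IVF animals it was 721 with DESeq2 and 137 to 348 without 1 library, and library size alone split it into 92 higher and 221 lower, against 120 and 169. The average sex effect had 1625 under library size alone (252 higher, 1373 lower, against 472 and 479), 1693 with DESeq2 and 519 to 810 without 1 library. Library size alone moved the median of all genes to -0.336 for sex in natural animals and -0.221 for the average sex effect.

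Among the pathway genes, Mbd3 lost its call under library size alone, without a filter, without the 2 smallest libraries and with the GC offset, Apex1 under library size alone (adjusted p = 0.0724), E2f1 with the GC offset (adjusted p = 0.0641), and Idh2 in natural animals without a filter (0.0508), with only those groups (0.103) and without the 2 smallest libraries (0.06), and in IVF animals without a filter (0.0609) and with only those groups (0.113), all adjusted p from edgeR. Depth limits Uhrf1, Tet1 and Zfp57 most, at 90, 51 and 49 reads in all.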
